A study of Pan troglodytes with 217 samples.

Results

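The 9 genes described here, BCL2, BCL2L1, MCL1, BAX, BAK1, BBC3, PMAIP1, BIK and BCL2L11, belong to the BCL2 family, whose proteins decide at the mitochondrial outer membrane whether a cell enters apoptosis. They were found by matching chimpanzee Ensembl identifiers to gene symbols, and 9 of the 9 symbols were present among the 33729 identifiers of the count table. BCL2L1 (BCL-XL), BCL2 and MCL1 are guardians, which bind and restrain the death-promoting members. BAX and BAK1 are the effectors that open the outer membrane and release cytochrome c. BBC3 (PUMA), PMAIP1 (NOXA), BIK and BCL2L11 (BIM) are BH3-only proteins, which occupy the guardians or act on the effectors, and PMAIP1 binds MCL1 in preference to the other guardians. Apoptosis by this route removes damaged or unfit cells in the early embryo.

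The data were read counts from single cells of day 4 chimpanzee blastoids, structures resembling the blastocyst that form from naive pluripotent stem cells. The naive cells had been cultured in PXGL-A6E, a medium that includes EPZ-6438, an inhibitor of the histone methyltransferase EZH2. Naive cells, as floating colonies or as aggregates of dissociated cells, passed through PALY, a medium named for PD, A83, LPA and Y-27632, next ALY, which lacks PD, and last N2B27. Which of these starts gave the sequenced cells is not given in the sources used here. There was 1 condition and no untreated group. The mural trophectoderm was cut away with glass needles and dissociated for longer than the inner cell mass with polar trophectoderm. Each cell was sequenced as a full-length SMART-seq2 library without molecular identifiers. Neither the labels nor the study's methods tie a cell to a blastoid, a line or a batch, so the cells count as 1 unreplicated sample and no p-value is given.

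All but 24 cells had at least 8000 genes with a read, and these were divided into classes. There were 50 epiblast-like (EPI-like) and 32 hypoblast-like (HYPO-like) cells, and the trophectoderm-like (TE-like) cells formed clusters of 60 and 51 cells, named here CCR7-low and CCR7-high by their level of CCR7, a chemokine receptor gene. Totals were 1679888 to 25630392 reads per cell, with medians of 3951119 to 3978822 in the 3 classes. The classes were named from lists of lineage markers. Each list had its highest median summed level in its own class, which follows in large part from the naming and is not a separate check. The median summed level of 11 epiblast genes was 5050 CPM (counts per 1000000 reads counted on genes) in EPI-like cells, 836 CPM in HYPO-like cells and 877 CPM in TE-like cells. For 10 hypoblast genes it was 12.9, 1363 and 82.5 CPM, and for 11 trophectoderm genes 865, 997 and 5103 CPM. The HYPO-like class was the least clear-cut by the markers of its own list. PDGFRA of the hypoblast list had a read in 32 of its 32 cells and the others in 13 (APOA1) to 31 (GATA6). At least 3 hypoblast markers were at 10 CPM or more in 25 of these cells, but so were 3 epiblast markers in 25 and 3 trophectoderm markers in 26. In the other classes every cell had 3 markers of its own list at this level. Markers of other lists were not particular to HYPO-like cells. At least 3 trophectoderm markers were at this level in 38 of 50 EPI-like cells, and 3 epiblast markers in 20 TE-like cells. GATA3 of the trophectoderm list had a read in every TE-like cell. Markers of fibroblasts, which would come from feeder cells, had a median summed level of 3.55 CPM or less in each class. The amnion list had medians of 12.3, 0 and 17.8 CPM in EPI-, HYPO- and TE-like cells. The members entered the clustering, so their levels in the classes are descriptions. With the members and all other listed cell death genes left out of the clustering, every cell kept its class.

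EPI-like cells held the highest pooled levels of BCL2L1, MCL1, BAK1, PMAIP1, BIK and BCL2L11 among the 3 classes, guardians and death-promoting members alike. Against TE-like cells the widest differences of the pooled level were those of the BH3-only gene PMAIP1 and the effector BAK1. Against HYPO-like cells they were those of the BH3-only genes BIK and PMAIP1. By the median cell, BIK (log2 -3.62) differed more than BAK1 (-2.99) between TE- and EPI-like cells. BAX was at the same level in EPI-like and HYPO-like cells, and BCL2 and BBC3 were near the limit of detection in every class. Pooled levels are given in CPM over the summed reads of a class, with exact Poisson 95% intervals. Copies of 1 cDNA are counted more than once and cells differ far more than these intervals, which cover counting error only. A lower level in a class can come from fewer cells with the transcript or from less of it per cell, so both are given. Levels are compared between classes for 1 gene at a time, since the reads were not divided by transcript length.

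**Figure D1:**
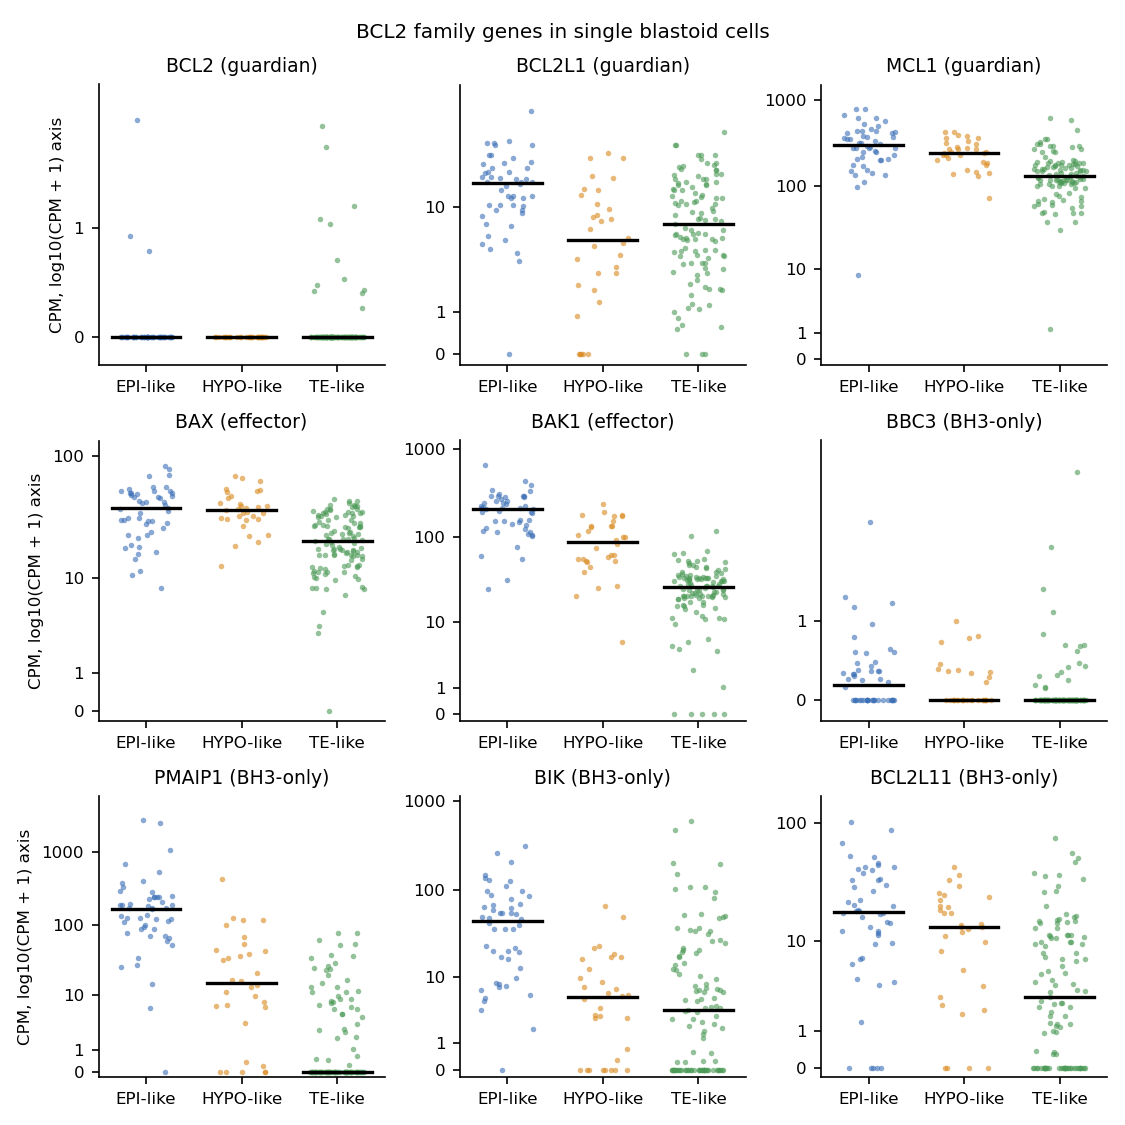
CPM of each of the 9 members (panels, with their role) in single EPI-like (50), HYPO-like (32) and TE-like (60 and 51 in its clusters) cells, on a log10(CPM + 1) axis whose range differs between panels. Points are cells and black lines are medians; BAK1 has medians of 209.2, 87.9 and 26.3 CPM in the 3 classes, whereas BCL2 has a read in 3, 0 and 12 cells.

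Among the guardians, MCL1 (ENSPTRG00000001260) had reads in every cell of the 3 classes. Its level was 327 CPM (325 to 329) in EPI-like, 252.9 CPM (250.1 to 255.6) in HYPO-like and 153.5 CPM (152.4 to 154.5) in TE-like cells. In EPI-like cells it ran from 8.23 to 792 CPM, with a median of 300.1 CPM. HYPO-like cells lay between 72.8 and 424 CPM (median 245.1 CPM), inside the range of the EPI-like cells, and 9 of 32 exceeded the EPI-like median. TE-like cells ranged from 1.21 to 620 CPM around a median of 131.3 CPM, and 8 of them exceeded the EPI-like median. The EPI- and HYPO-like distributions of MCL1 overlapped along most of their range, and the TE-like cells lay lower as a group with some cells at the EPI-like level.

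BCL2L1 matched a pair of identifiers, of which ENSPTRG00000013359 held 9870 reads and ENSPTRG00000046662 none in any cell. EPI-like cells had 15.7 CPM (15.2 to 16.3), with cells from 0 to 51.4 CPM and a median of 15.2 CPM. In TE-like cells the pooled level was 9.76 CPM (9.50 to 10.0) and the cells ran from 0 to 36.4 CPM with a median of 7.37 CPM. HYPO-like cells were lowest at 7.67 CPM (7.20 to 8.17), from 0 to 25.5 CPM with a median of 5.38 CPM. HYPO- and TE-like cells overlapped almost throughout, with 70 TE-like cells above the HYPO-like median. BCL2L1 had a read in 49 of 50 EPI-like cells, 27 of 32 HYPO-like cells (84.4%, exact 95% interval 67.2% to 94.7%) and 97.3% of TE-like cells. After each cell was thinned to 2532312 reads, which left out 20 shallower cells, these shares were 100%, 84% and 98%.

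BCL2 (ENSPTRG00000042753), the founding member of the family, was scarcely detected. It had 18 reads in 3 of 50 EPI-like cells (6%, 1.25% to 16.5%) and 73 reads in 12 TE-like cells (10.8%, 5.71% to 18.1%). No read was found in 32 HYPO-like cells, a count that allows a share of cells with a read of up to 9.38% and a level of up to 0.0233 CPM. The highest single cell of the 3 classes was at 3.01 CPM. Of the 12 TE-like cells with a read, 9 were in the CCR7-high and 3 in the CCR7-low cluster. At the thinned depth described above the shares were 6.25% of EPI-like and 6% of TE-like cells (3.704% of CCR7-low and 8.70% of CCR7-high cells), so no difference between these classes was detectable at this depth. MCL1 and BCL2L1 were thus the guardian members with a read in most cells. The ratio of MCL1 to BCL2L1 (log2 of pooled CPM) was 4.38 in EPI-like, 5.04 in HYPO-like and 3.97 in TE-like cells, and a ratio of this kind is compared between classes only.

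BAK1 (ENSPTRG00000018053) separated the classes most clearly of the effectors. EPI-like cells had 211.7 CPM (209.7 to 213.6) and ranged from 25.1 to 656 CPM with a median of 209.2 CPM. HYPO-like cells had 101.4 CPM (99.6 to 103.1), from 5.62 to 238.8 CPM with a median of 87.9 CPM. TE-like cells had 27.4 CPM (26.97 to 27.9), from 0 to 116.3 CPM with a median of 26.3 CPM. No TE-like cell reached the EPI-like median, and 39 of 50 EPI-like cells lay above the highest TE-like cell. HYPO-like cells stood between, with 1 of 32 above the EPI-like median and 12 of 32 above the highest TE-like cell. The pooled level in EPI-like cells was 7.72-fold that in TE-like cells and 2.09-fold that in HYPO-like cells. BAK1 had a read in 50 of 50 EPI-like, 32 of 32 HYPO-like and 95.5% of TE-like cells (89.8% to 98.5%), so the difference lay in the level per cell more than in the share of cells.

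BAX (ENSPTRG00000011267) did not follow BAK1. It stood at 39.8 CPM in both EPI-like (39.005 to 40.7) and HYPO-like cells (38.7 to 40.9). EPI-like cells ranged from 8.25 to 82.2 CPM with a median of 37.99 CPM, and HYPO-like cells from 12.8 to 69.4 CPM with a median of 37.02 CPM. TE-like cells had 23.02 CPM (22.6 to 23.4), from 0 to 45.04 CPM with a median of 20.8 CPM, and 9 of them exceeded the EPI-like median. The pooled EPI-like level was 1.73-fold the TE-like level, less than the 2-fold used below to count a difference. As BAX varied less than BAK1, the log2 ratio of BAX to BAK1 was -2.41 in EPI-like, -1.35 in HYPO-like and -0.25 in TE-like cells. The difference between TE- and EPI-like cells was 2.16, and it was 2.09 with the mean CPM of the cells in place of the pooled level. Both effectors were at 10 CPM or more in 49 of 50 EPI-like, 31 of 32 HYPO-like and 88 TE-like cells (79.3%, 70.5% to 86.4%). Of the other TE-like cells, 11 had BAX alone, 10 BAK1 alone and 2 neither at this level.

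**Figure D2:**
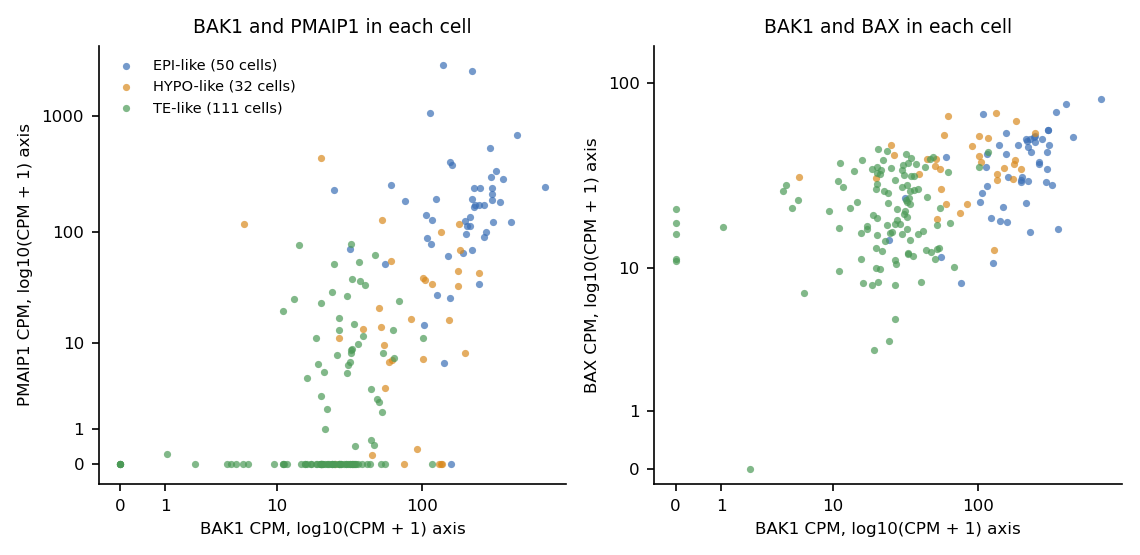
PMAIP1 (left) and BAX (right) against BAK1 in each cell, all in CPM on log10(CPM + 1) axes, for 50 EPI-like, 32 HYPO-like and the TE-like cells of both clusters (colours). EPI-like cells lie to the upper right for BAK1 and PMAIP1, 66 TE-like cells sit at 0 CPM of PMAIP1, and BAX spans a similar height in EPI- and HYPO-like cells.

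PMAIP1 (ENSPTRG00000010064) differed from TE-like cells more than any other member compared. EPI-like cells had 284 CPM (281 to 286), from 0 to 2729 CPM with a median of 166.9 CPM. HYPO-like cells had 51.7 CPM (50.4 to 52.9), from 0 to 431 CPM with a median of 15.4 CPM. TE-like cells had 7.43 CPM (7.20 to 7.67), from 0 to 77.9 CPM with a median of 0. The pooled level of EPI-like cells was thus 5.49-fold that of HYPO-like cells and 38.2-fold that of TE-like cells. A single cell supplied 20.1% of the PMAIP1 reads of EPI-like cells and another 37.1% of those of HYPO-like cells. With the highest cell of each class left out, the log2 difference of TE- from EPI-like cells was -5.08 against -5.25 with it, and that of HYPO- from EPI-like cells -2.77 against -2.46. The 5 EPI-like cells with the most PMAIP1 each had under 1% mitochondrial reads. The 7 EPI-like cells with under 1% mitochondrial reads (0.00683% to 0.64%, against a class median of 2.19%) ranged from 69.3 to 2729 CPM with a median of 691 CPM, and gave 52.1% of the reads of PMAIP1 in the class. The other 43 had a median of 134.02 CPM and at most 400.4 CPM. Without the cells under 1% in each class, an alternative added after the data were seen, the log2 differences were -4.45 in TE- and -1.71 in HYPO- against EPI-like cells, and the part of the mitochondrial share was not tested further. Over all cells of the 3 classes, no TE-like cell and 1 HYPO-like cell exceeded the EPI-like median, and 38 of 50 EPI-like cells lay above the highest TE-like cell.

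The share of cells with a PMAIP1 read differed as well. It was 49 of 50 EPI-like cells (98%, 89.4% to 99.9%), 27 of 32 HYPO-like cells (84.4%, 67.2% to 94.7%) and 45 TE-like cells (40.5%, 31.3% to 50.3%). At the common depth of 2532312 reads the shares were 97.9%, 84% and 40%, so the order was the same when cells had equal totals. Set against MCL1, the guardian it binds, PMAIP1 gave a log2 ratio of pooled levels of -0.21 in EPI-like, -2.29 in HYPO-like and -4.37 in TE-like cells. From the median cells it was -0.85 in EPI-like and -3.99 in HYPO-like cells, so its size depended on the summary. No such value exists for TE-like cells, whose median of PMAIP1 was 0.

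BIK (ENSPTRG00000014467), a BH3-only protein of the endoplasmic reticulum, was uneven among cells of 1 class. EPI-like cells had 63.3 CPM (62.2 to 64.4), from 0 to 311 CPM with a median of 45.1 CPM. HYPO-like cells had 10.6 CPM (10.0 to 11.1), from 0 to 66.4 CPM with a median of 5.50 CPM. TE-like cells had 24.5 CPM (24.1 to 24.9), from 0 to 596 CPM with a median of 3.67 CPM. By the pooled level TE-like cells were 2.32-fold higher than HYPO-like cells, whereas by the median cell they were lower. A minority of TE-like cells with high BIK set the pooled level, as 10 lay above the highest HYPO-like cell and 37 had no read. EPI-like cells were above both other classes by the pooled level, 5.99-fold above HYPO-like and 2.59-fold above TE-like cells, and by the median.

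BCL2L11 (ENSPTRG00000051635) had 24.95 CPM (24.3 to 25.6) in EPI-like, 14.2 CPM (13.6 to 14.9) in HYPO-like and 10.3 CPM (10.0 to 10.6) in TE-like cells. The median cell had 17.9, 13.3 and 2.81 CPM, and the highest cells 101.7, 42.9 and 75.3 CPM. A read was present in 45 of 50, 28 of 32 and 77 (69.4%) cells of the 3 classes in the same order, and in 89.6%, 88% and 69% of the thinned cells. EPI- and HYPO-like cells overlapped in the middle of their ranges, and TE-like cells were spread from many cells without a read to a few at the EPI-like level. A single TE-like cell gave 27.1% of the reads of the gene in that class. The log2 ratio of BCL2L11 to BCL2L1 was 0.67, 0.89 and 0.07 from pooled levels, but 0.24, 1.30 and -1.39 from the median cells, so how far the classes differed depended on the summary.

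BBC3 matched a pair of identifiers (ENSPTRG00000011203 and ENSPTRG00000047903), which were summed. It had 0.32 CPM (0.25 to 0.40) in EPI-like, 0.20 CPM (0.13 to 0.30) in HYPO-like and 0.14 CPM (0.11 to 0.17) in TE-like cells. A read was present in 26 of 50 EPI-like cells (52%, 37.4% to 66.3%), 12 of 32 HYPO-like cells (37.5%, 21.1% to 56.3%) and 19 TE-like cells (17.1%, 10.6% to 25.4%). No cell of the 3 classes reached 10 CPM, and the highest was at 6.39 CPM. The interval of the HYPO-like share overlapped those of both other classes, whereas the EPI- and TE-like intervals, which cover counting error only, did not overlap. At the thinned depth the shares were 41.7%, 36% and 11%.

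Counted together, 7 of the 9 members reached 5 CPM in a class of each pair, the minimum for a fold to be counted, and BCL2 and BBC3 did not. Of these 7, 4 were at least 2-fold lower in HYPO- than in EPI-like cells (BCL2L1, BAK1, PMAIP1 and BIK) and none was higher. Across all 9779 features compared in the same way, 19.5% differed by 2-fold or more in either direction. The median log2 difference of the 7 members was -1.04 against -0.14 for all features. Of the same 7, 5 were lower in TE- than in EPI-like cells (MCL1, BAK1, PMAIP1, BIK and BCL2L11), none was higher, and 29.4% of 9954 features differed. The medians were -1.28 for the members and -0.11 for all features. Between TE- and HYPO-like cells, BAK1 and PMAIP1 were lower, BIK was higher by the pooled level, and 23% of 9489 features differed. The median there was -0.72 for the members and 0.03 for all features. The comparisons share classes, the first pair sharing the EPI-like cells, so they are not separate evidence.

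**Figure D3:**
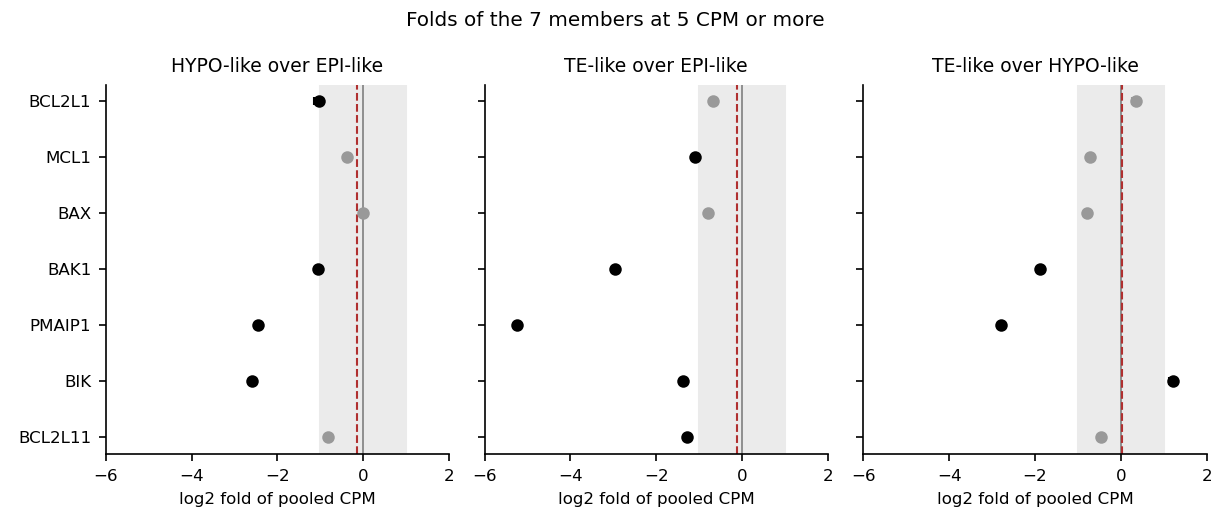
Log2 fold of pooled CPM for the 7 members at 5 CPM or more, in the 3 comparisons between classes. Black points are 2-fold or more from equality, grey points are within the shaded 2-fold band, bars are 95% counting intervals that are mostly narrower than the symbols, and the dashed line is the median of all features; PMAIP1 reaches -5.25 in TE- over EPI-like cells.

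The smallest of these differences depended on how totals were scaled. TMM factors shifted every feature by 0.17 (log2) in HYPO- against EPI-like cells and by 0.20 in TE- against EPI-like cells. Under them BCL2L1 (-0.87) and BAK1 (-0.90) were within 2-fold between HYPO- and EPI-like cells, and MCL1 (-0.89) between TE- and EPI-like cells. BAK1 and PMAIP1 remained lower in TE- than in EPI-like cells by more than 2-fold under each of the alternatives that gave a value, with ranges of -2.99 to -2.75 and -5.41 to -4.45.

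The number of BH3-only members per cell also differed between the classes, which restates the levels above at 1 cutoff. BBC3 reached 10 CPM in no cell of the 3 classes, so 3 of the 4 members means PMAIP1, BIK and BCL2L11 together. At 10 CPM or more, at least 3 of the 4 were present in 27 of 50 EPI-like cells (54%, 39.3% to 68.2%), 4 of 32 HYPO-like cells (12.5%, 3.51% to 28.99%) and 3 TE-like cells (2.703%, 0.56% to 7.70%). None was present at this level in 1 EPI-like, 2 HYPO-like and 45 TE-like cells. BCL2L1 and MCL1 were both at 10 CPM or more in 36 of 50 EPI-like, 9 of 32 HYPO-like and 45 TE-like cells. MCL1 was there without BCL2L1 in 13, 23 and 65 cells, and 1 TE-like cell had none of the guardian members BCL2, BCL2L1 and MCL1 at this level. BCL2L2, a guardian outside the 9 members, was not counted and had at least 57.9 CPM in every TE-like cell. The shares of cells with at least 3 BH3-only members and of cells with both BCL2L1 and MCL1 were thus each highest in the EPI-like class.

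Within a class, the members did not vary together to a marked degree. Of 28 pairs of members in EPI-like cells, 1 reached a Spearman rho of 0.5 (BAX with BAK1, rho 0.52, 50 cells), and of 21 pairs in HYPO-like and 15 in TE-like cells none did. BAX and BAK1 had a rho of 0.16 over 32 HYPO-like and 0.14 over the TE-like cells. None of the 8 members assessed in EPI-like, 7 in HYPO-like and 6 in TE-like cells (50% or more of a class having a read) reached a rho of 0.5 with the total reads, the number of genes or the share of mitochondrial reads of a cell, the extremes being -0.35 and 0.38. Correlations are across cells of 1 sample, which share preparation and counting, and are given as descriptions.

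Across the cells of the 3 classes, the genes nearest to BAK1 were POU5F1 (rho 0.79), which encodes the pluripotency factor OCT4, GNAI2 (0.78) and KCNK12 (0.76). Those nearest to PMAIP1 were POU5F1 (0.75), CA13 (0.74) and PLA2G10 (0.74), and those nearest to MCL1 were TAX1BP1, RAB42 and AKIRIN1 (0.62 each). For the other members assessed no gene of the 9450 compared reached 0.6. These values were computed over the 3 classes at once, so differences between classes enter them. POU5F1 was chosen for a look inside the classes after its rank was seen. BAK1 had a rho with it of 0.57 in EPI-like, 0.42 in HYPO-like and 0.33 in TE-like cells, whereas PMAIP1 had 0.22 in EPI-like and 0.16 in HYPO-like cells. BAX, which differed little between EPI- and HYPO-like cells, had a rho of 0.57 with POU5F1 inside the EPI-like class and -0.06 and 0.22 in the others. NANOG, another pluripotency gene looked at in the same way, had a rho with BCL2L1 of 0.60 in EPI-like and -0.51 in HYPO-like cells, and with BAK1 of 0.32, 0.14 and 0.28 in EPI-, HYPO- and TE-like cells. The BCL2L1 values were the highest and lowest of any member with NANOG inside a class, and were named after they were seen. BAX had 0.42 and -0.16, MCL1 0.14 and 0.13, and PMAIP1 0.04 and -0.05 in EPI- and HYPO-like cells. NANOG had a read in 24 of 32 HYPO-like cells.

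The trophectoderm-like clusters differed in 1 of the 7 members past 2-fold, where 13.9% of 9215 features did. BIK was at 42.2 CPM (41.4 to 43.001) in the 60 CCR7-low cells and at 5.69 CPM (5.40 to 5.99) in the 51 CCR7-high cells, 7.42-fold apart. The CCR7-low cells ranged from 0 to 596 CPM with a median of 9.42 CPM, and the CCR7-high cells from 0 to 49.9 CPM with a median of 1.72 CPM. The highest CCR7-high cell was exceeded by 13 CCR7-low cells, and the ranges overlapped below that. With the highest cell of each cluster left out the log2 difference was -3.09 against -2.89 with it. CCR7-high cells had a median of 411 CPM for 5 genes of later trophectoderm and syncytiotrophoblast, CCR7 among them, and CCR7-low cells 1.69 CPM. The sizes of these clusters moved with the settings (CCR7-low 60 to 76 cells), and BIK was lower in the CCR7-high cells under each of the 18 alternatives that gave a value (log2 -3.52 to -2.45). BAX (27.5 and 18.3 CPM) and BCL2L1 (11.5 and 7.90 CPM) were lower in the CCR7-high cluster by less than 2-fold. BAK1 had 25.7 and 29.2 CPM in the CCR7-low and CCR7-high cells, and MCL1 138.98 and 168.8 CPM.

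The rest of the cell death machinery was described with lists, of which the counts past 2-fold are read against the shares of features given above. Of 10 other BCL2 family genes, 6 could be compared in TE- against EPI-like and in HYPO- against EPI-like cells, and 2 were lower each time. Between TE- and HYPO-like cells 2 of 5 were higher and none was lower, with BNIP3L, a mitophagy receptor gene, at 44.04 against 21.5 CPM. BID, which caspase-8 cleaves to link death receptors to mitochondria, had 25.8 CPM in EPI-like, 2.67 in HYPO-like and 7.45 in TE-like cells. BCL2L2 (BCL-W), another guardian, had 149.6, 191.1 and 206.8 CPM, within 2-fold. BCL2A1, BCL2L10 and BOK were below 1 CPM in each class.

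Downstream of the mitochondria, PARP1, a caspase substrate that repairs DNA breaks, had 742, 327 and 196.9 CPM in EPI-, HYPO- and TE-like cells. CASP6, an effector caspase, had 198.7, 142.8 and 73.97 CPM, and the initiator CASP9 had 36.5, 45.98 and 17.1 CPM. HYPO-like cells were 2-fold or more below EPI-like cells for PARP1, and TE-like cells were below HYPO-like cells for CASP9 and CYCS (cytochrome c, 1106 against 493 CPM). No inhibitor of apoptosis or antagonist of one differed by 2-fold between classes among the 5 that could be compared, with BIRC5 (survivin) at 237.5, 227.7 and 221.3 CPM. CYCS was summed over 2 identifiers.

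Of 7 genes of the death receptor list that were compared, 3 were lower in TE- than in EPI-like cells and none was higher. CFLAR, which blocks caspase-8 activation, had 47.7 and 40.2 CPM in EPI- and HYPO-like cells and 3.62 CPM in TE-like cells. CASP8 itself had 19.3, 4.67 and 2.11 CPM, and the TNF receptor gene TNFRSF1A 77.1, 65.6 and 19.4 CPM. TNFRSF10B, a TRAIL receptor gene, was lower in HYPO-like (8.82 CPM) than in EPI-like cells (26.2 CPM). Among genes of other death programmes, GSDMD, the pore former of pyroptosis, had 27.9, 16.3 and 3.57 CPM. SLC7A11, the cystine carrier that guards against ferroptosis, had 30.4, 4.38 and 22.7 CPM.

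**Figure D4:**
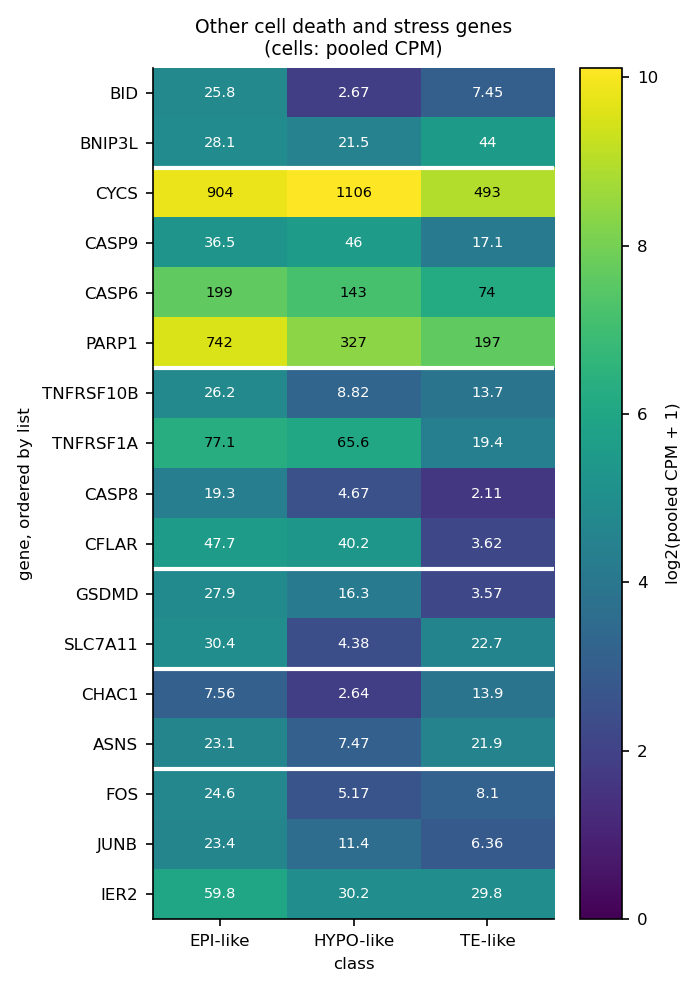
Pooled CPM (numbers) and log2(pooled CPM + 1) (colour) of cell death and stress genes from the lists described here that differed by at least 2-fold between any 2 of the EPI-, HYPO- and TE-like classes, ordered by list with white lines between lists. CASP8, CFLAR and GSDMD have their lowest values in TE-like cells, and BID and SLC7A11 in HYPO-like cells.

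In the integrated stress response list, the transcription factor gene ATF4, which can induce PMAIP1, had 307, 272 and 389 CPM in EPI-, HYPO- and TE-like cells. ASNS (23.1, 7.47 and 21.9 CPM) and CHAC1 (7.56, 2.64 and 13.9 CPM) were lowest in HYPO-like cells. Of the 6 genes of this list, 2 were at least 2-fold lower and none was higher in HYPO- than in EPI-like cells. Some genes of another list, whose counts are not reported here, stood the other way between these classes. GDF15 had 197.05 CPM in HYPO-like against 68.2 CPM in EPI-like cells, and BTG2 105.4 against 41.2 CPM. The cell cycle inhibitor CDKN1A had 27.1 against 11.3 CPM. They were among the 19.5% of features past 2-fold, and are single values rather than a result about their list.

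Among immediate early genes, which dissociation of tissue can induce, 5 were compared, of which 3 were lower in HYPO- and 4 in TE- than in EPI-like cells. Of these, JUNB in HYPO- (log2 -1.04) and IER2 in TE- against EPI-like cells (-1.01) would be within 2-fold after the TMM shifts of 0.17 and 0.20. Between TE- and HYPO-like cells none of 4 was past 2-fold. ATF3 had 12.5, 15.96 and 17.6 CPM in EPI-, HYPO- and TE-like cells, within 2-fold. FOS had 24.6, 5.17 and 8.10 CPM, JUNB 23.4, 11.4 and 6.36 CPM, and IER2 59.8, 30.2 and 29.8 CPM. The median EPI-like and HYPO-like cell had no read of FOS, whereas the median TE-like cell had 4.26 CPM, so the lower pooled level of FOS in TE-like cells did not hold for the median cell. JUNB and IER2 were lower in TE- than in EPI-like cells by the median as well (2.55 against 16.4 and 26.9 against 46.7 CPM). Mural TE was dissociated for longer than the rest, and no label tells which cells were mural. The part of dissociation in the levels of the members was not tested.

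A total of 24 cells had fewer than 8000 genes with a read, and these were clustered with the others to give each a class. Of these, 15 joined the HYPO-like, 8 the TE-like and 1 the EPI-like cluster. They had 5792 to 3863814 reads with a median of 1660767. A median of 16.3% of their reads were mitochondrial, against 2.19% in the cells of the 3 classes. Of the 15, 7 had at least 3 hypoblast markers at 10 CPM or more, against 25 of the 32 HYPO-like cells. Their median summed hypoblast level was 68.7 CPM against 1363 CPM, and epiblast markers were the more common in them. At least 3 epiblast markers were at 10 CPM or more in 13 of the 15, and the median summed epiblast level was 1357 CPM against 836 CPM. Of the 11 epiblast genes, 6 were pooled higher than in HYPO-like cells, among them SOX2 (43.7 against 6.93 CPM), and 5 lower, among them POU5F1 (347 against 447 CPM). Of the 10 hypoblast genes 9 were lower and SOX17 was higher (136.2 against 110.5 CPM). The name HYPO-like thus went only partly with the markers of these cells, which limits their comparison with HYPO-like cells. They are called here, by how they were assigned, the low-gene cells of the HYPO-like cluster.

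In these 15 cells the members were present in fewer cells and, where present, at levels that spread widely. BAK1 ranged from 0 to 209.7 CPM with a median of 5.51 CPM, against 87.9 CPM in HYPO-like cells with 8000 genes or more. BAX ranged from 0 to 234 CPM with a median of 12.04 CPM against 37.02 CPM. MCL1 had a median of 149.5 CPM against 245.1 CPM and ran from 0 to 544 CPM. Medians were thus lower for the guardian and both effectors, while 3 of the 15 cells for BAX and 2 for MCL1 exceeded the highest of the 32 HYPO-like cells, as did 1 to 3 cells for BCL2L1, BIK and BCL2L11. Of the cells above it for BIK, 1 had only 5792 reads in all, so that its 172.7 CPM came from 1 read. PMAIP1 had a median of 2.11 CPM against 15.4 CPM, and BCL2L1, BIK and BCL2L11 had a median of 0.

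Pooled over the 15 cells the picture was another. None of the 7 members compared was past 2-fold (5 had a higher and 2 a lower level), in a comparison in which 51.6% of 10183 features were. BCL2L1 had 14.7 CPM against 7.67 CPM, but 1 cell gave 80.99% of its reads, and without the highest cell of each group the log2 difference was -1.22 in place of 0.94. BBC3, below the minimum level, had 2.59 CPM against 0.20 CPM, with 86% of its reads from 1 cell. By the median cell 6 of 7 members were lower by 2-fold or more, in a comparison in which 84.4% of all features differed. Without mitochondrial reads in the totals, an alternative added after the data were seen, 3 members were higher (BCL2L1, PMAIP1 and BIK). The share of all features under it is not given here, so this count is not read as a result. In the low-gene cells 1 cell gave 44.4% of the PMAIP1 reads and 1 gave 53.3% of the BIK reads, against 37.1% and 21.1% in HYPO-like cells. These cells were chosen for having few genes, so a lower share of cells with a read is partly fixed by that choice.

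**Figure D5:**
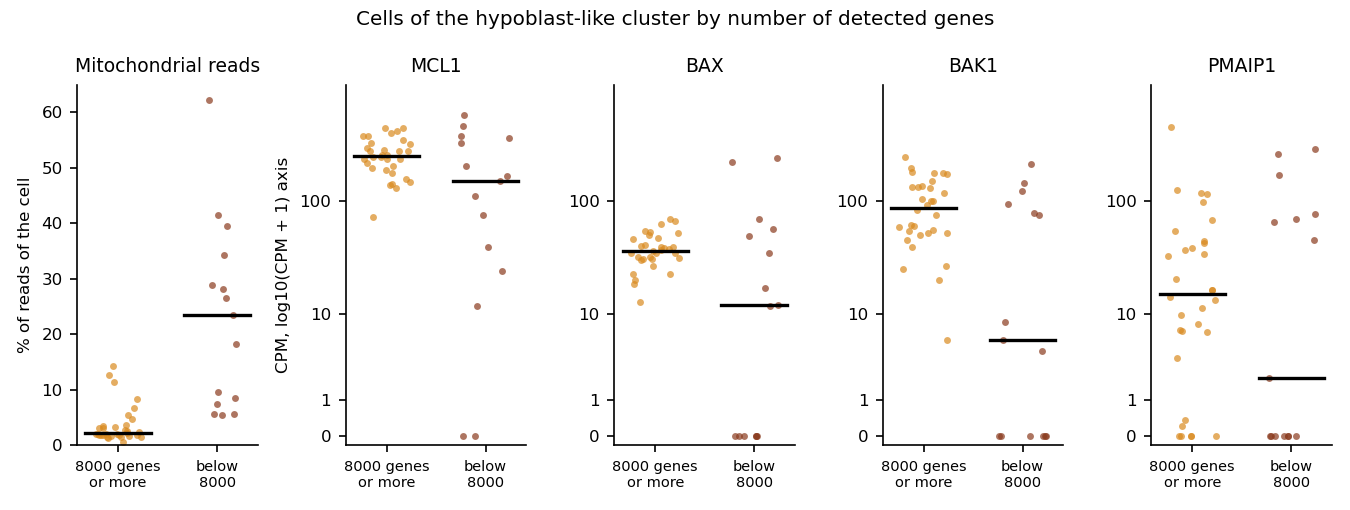
Share of mitochondrial reads (left, % of the reads of the cell) and CPM of MCL1, BAX, BAK1 and PMAIP1 (log10(CPM + 1) axes) in the 32 HYPO-like cells with 8000 genes or more and the 15 low-gene cells of the same cluster. Points are cells and black lines medians; the median mitochondrial share is 2.13% and 23.4%, and BAK1 medians are 87.9 and 5.51 CPM.

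Both effectors at 10 CPM or more were found in 6 of the 24 low-gene cells (25%, 9.77% to 46.7%), against 87.05% of the cells of the 3 classes (81.5% to 91.4%). Neither effector reached it in 7, and none of the guardian members BCL2, BCL2L1 and MCL1 in 3, with BCL2L2 not counted. At 1000000 reads per cell, which 17 of the 24 reached, BAK1 had a read in 70.6% and BAX in 76.5%, against 97.4% and 99.5% of the cells of the 3 classes thinned alike. Since the cells were picked for having few genes, lower shares at any total follow in part from that choice. Few genes, high mitochondrial shares and lower median levels of the members went together in these cells, and their parts cannot be told apart.

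Other listed genes differed in the low-gene cells of the HYPO-like cluster, in a comparison in which 51.6% of 10183 features were past 2-fold. Of the list of inhibitors of apoptosis 2 of 5 genes and of the death receptor list 2 of 6 were lower, and none was higher. Of the other BCL2 family genes 2 of 6 were higher and none was lower. The shares of these lists were thus not above that of all features. DFFA, the inhibitor of the caspase-activated nuclease, had 4.14 against 41.97 CPM and CYCS 489 against 1106 CPM. FADD, the adaptor of death receptors, had 7.87 against 40.7 CPM, DIABLO 88.2 against 271 CPM and BIRC5 103.9 against 227.7 CPM. In the other direction, 5 of 6 immediate early genes were higher, with IER2 at 121.7 against 30.2 CPM, FOS at 35.9 against 5.17 CPM and EGR1 at 17.9 against 0.70 CPM. The medians of FOS and EGR1 were 0 in both groups and those of IER2 were 27.3 and 24.4 CPM, so a minority of cells carried these pooled differences. BMF, a BH3-only gene, had 30.6 against 1.76 CPM with a median of 0 in the low-gene cells. The 8 low-gene cells of the TE-like cluster had a median of 10.3% mitochondrial reads, and medians of 91.6 CPM for MCL1 (131.3 in the others), 13.5 CPM for BAX (20.8) and 3.65 CPM for BAK1 (26.3). Pooled, MCL1 stood the other way, at 329.7 against 153.5 CPM, as 3 of the 8 cells were at 434, 726 and 1156 CPM. The 5 genes of later trophectoderm and syncytiotrophoblast summed to as much as 25604 CPM in these cells, against at most 14488 CPM in the others. Their median sums were 29.6 and 43.4 CPM, and the part of cell state was not tested. DDIT3 (CHOP), a stress-induced gene picked after its value was seen, was pooled at 1432 CPM in these 8 against 110.3 CPM, with 81.6% of its reads from 1 cell and a median of 0.19 CPM.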

How the data were processed

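Single cells of day 4 blastoids were sequenced by SMART-seq2 on paired-end runs. According to the study's methods, reads were trimmed with FastP, aligned with STAR to the chimpanzee genome Pan_tro_3.0 (Ensembl annotation) and counted per gene by STAR. The submitters' processing notes name Trim Galore 0.6.6, STAR 2.7.7a and GRCh38 without a role. The authors deposited raw read counts, neither normalized nor counted by molecule, for 217 cells and 33729 identifiers, of which 18783 had a symbol; identifiers of 1 symbol were summed. No pair of cells had identical counts. Doublets were neither called nor removed. No sequence or gene position was used.

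Cells with at least 4000 reads and 8000 genes, and genes with a read in at least 20 of them, were normalized, log-transformed and clustered (Scanpy 1.11.5, 50 components, 30 neighbours, Leiden resolution 1, seed 0), and clusters were named from the epiblast, hypoblast and trophectoderm markers, with at least 3 at 1 CPM required. Pooled CPM have exact Poisson and shares exact Clopper-Pearson 95% intervals. Where no read was found, the upper limit given is 3 counts. A fold was counted at 2 where a class of the pair had 5 CPM. Correlations used log2(CPM + 1). All members were named. Of each list and comparison, up to 4 genes past 2-fold and at 10 CPM or more were chosen by size of fold; likeness needed a rho of 0.6. Genes within 2-fold, beside these, were given for context after their values were seen. Some listed genes, and counts over the lists that hold them, are not reported here. JUN and IER3 of the immediate early list had no matching identifier. Code was checked on simulated counts. Members and lists were chosen with earlier results of these data known. Alternatives covered summaries, scaling (edgeR 4.0.16, DESeq2 1.42.0), cell filters, clustering, thinning and thresholds.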

Additional observations from a re-analysis of the deposited data

How the results depend on the processing

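The counts of members past 2-fold were computed again under each alternative, 85 values in all, of which 71 lay within 1.5 times the value given. In HYPO- against EPI-like cells 2 members remained with TMM factors, with DESeq2 size factors and with a fold of 3, in place of 4. In TE- against EPI-like cells 2 passed a fold of 3, in place of 5. In TE- against HYPO-like cells 5 passed a fold of 1.5, in place of 3. Between the TE-like clusters, 3 passed without a minimum level, 4 with a fold of 1.5 and 2 at a resolution of 0.5, where BCL2L11 (-1.01, log2) joined BIK, in place of 1. The clusters could not be compared at a resolution of 1.5 or with 15 neighbours, which gave 3 TE-like clusters. For the low-gene cells of the HYPO-like cluster, 2 passed with the mean of the cells, 6 with the median, 2 without the highest cell, 5 with a fold of 1.5, 2 among cells thinned to 1000000 reads and 3 without mitochondrial reads, in place of 0; so no count there is stable. Among the alternative values of the 13 folds past 2-fold, all but 1 kept their direction, and the exception was BIK in TE- against HYPO-like cells, at -0.58 (log2) by the median cell. Of the 3 alternatives added after the data were seen, leaving cells with over 10% or under 1% mitochondrial reads out of the 3 classes changed none of their counts. The causes were not tested. No paired analysis was possible because the cells form 1 sample without replicates. Read depth limits BCL2 and BBC3, whose levels were at or near the limit of counting in every class. For BBC3 the shares of cells with a read had separate intervals between EPI- and TE-like cells only.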
